A study of Mus musculus with 56 samples.

Results

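The wild-type passage from multipotent progenitors (MPP) to granulocyte-macrophage progenitors (GMP) in mouse bone marrow is described here. Its members were chosen by genotype and population in the labels, and they were the 9 RNA-seq libraries of wild-type mice, 5 from GMP and 4 from MPP, out of 56 samples in the series. The test covered 12098 of the 24424 genes in the deposited table, those whose mean over these 9 libraries reached 4. A gene can reach 4 through MPP or GMP alone, and it can then only be higher in that population. The series was made to profile 5-hydroxymethylcytosine in rare cells, and its 41 hydroxymethylcytosine and input samples were not analysed here. The mice were C57BL/6, with no engineered allele in the wild-type groups and no treatment named. MPP were sorted from marrow as lineage-negative, Sca-1+, c-Kit+, CD48+ and CD150- cells, and GMP as lineage-negative, Sca-1-, c-Kit+, CD34+ and CD16/32+ cells. The 6 libraries of T2F3 mice (Tet2-/-Flt3ITD, 3 MPP and 3 GMP, sorted by the same gates) were used to ask where the step differed in size. They also entered an alternative fit of the wild-type step to all 15 libraries. Age, sex and the number of animals behind a library are not given in the labels, so a p-value here measures only how these libraries spread, which may be technical.

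Multipotent progenitors can give rise to all blood lineages and are marked by HOX and other stem cell transcription factors, and many of them already transcribe lymphoid genes at a low level. GMP are restricted towards neutrophils, monocytes and the rarer granulocytes. The transcription factors C/EBP-alpha, PU.1 and GFI1 direct that passage, and promyelocytes then fill the first (primary) granules with myeloperoxidase and serine proteases before later cells make secondary and tertiary granules.

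All values are log2 expression values on a regularized log scale, which pulls genes with few reads towards their mean and so understates their differences. They are not corrected for gene length, so levels are compared between libraries and never between genes. The values hold no counts, and the depth of each library is unknown. Since the libraries are bulk RNA, fewer cells of a type and less RNA per cell cannot be told apart. The first principal component of the 9 libraries held 73.1% of the variance and separated MPP (34.1 to 38.0) from GMP (-34.8 to -26.3), and the second held 14.3% and set GMP 1 (-35.7) apart from the others (-6.5 to 16.5). Across genes, libraries of a group correlated at 0.9911 or more in GMP and 0.9964 or more in MPP.

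GMP 1 stood apart from the other GMP libraries in a few groups of genes. Its cytosolic ribosomal protein genes lay 1.08 above the mean of the other 4 GMP libraries (log2, median over 79 genes). Its respiratory chain genes lay 0.90 above and its primary granule list 0.69 above, while its glycolysis genes lay at -0.35. The late neutrophil granule list ran from -0.99 in GMP 3 to 0.94 in GMP 4. The erythroid list was highest in GMP 2 (0.65), and the dendritic cell list was lowest in MPP 1 (-0.70). Both libraries numbered 3 differed from all others in sex-linked RNA, with Xist at 10.92 and 10.89 against 14.19 to 15.18, and Ddx3y at 7.74 and 7.68 against 2.99 to 3.31. That is 1 library in each group. List counts that differ by over 1.5 times without both of them, and calls of named genes lost without them, are given beside the result.

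**Figure D1:**
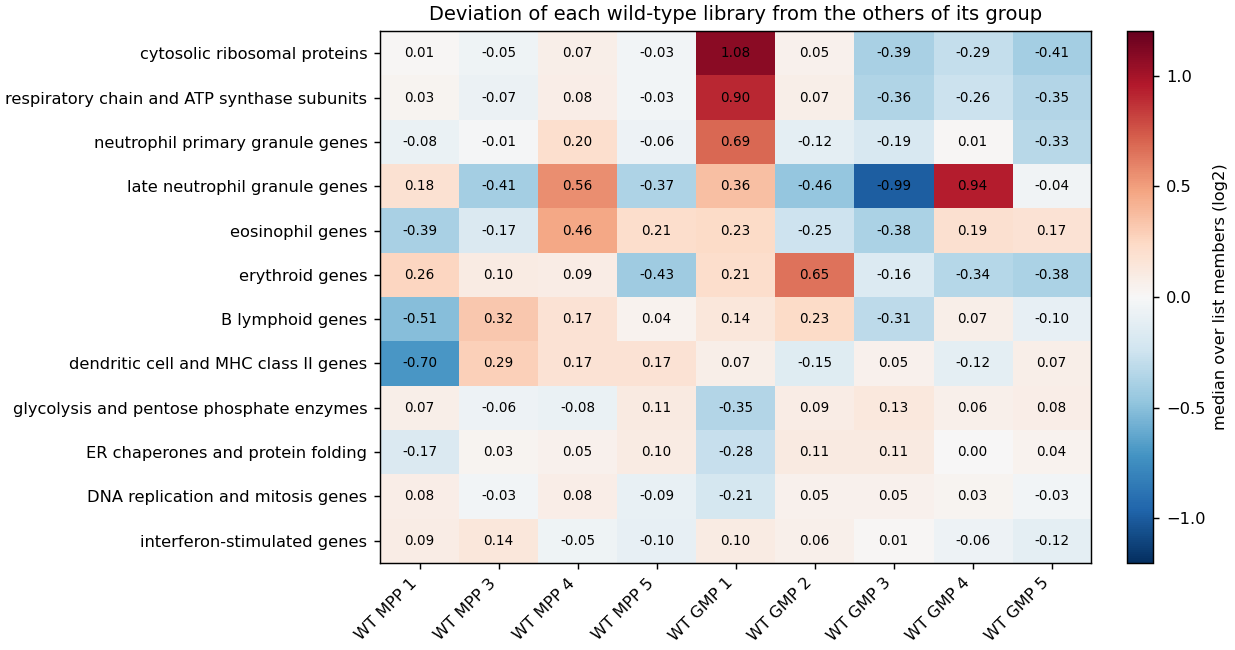
Deviation of each wild-type library (columns) from the mean of the other libraries of its group, as the median over the tested members of 12 gene lists (rows, log2, colour and number). GMP 1 is high in ribosomal protein (1.08) and respiratory chain genes (0.90), and the late neutrophil list spreads from -0.99 to 0.94 among GMP.

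The passage from MPP to GMP moved a large share of the transcriptome. The limma test called 5947 of 12098 genes (49.2%) at an adjusted p of 0.05, 3076 of them higher in GMP (25.4%) and 2871 lower (23.7%). Changes over 2-fold were fewer, 410 genes higher (3.39%) and 696 lower (5.75%). In 5212 genes (43.1%) every GMP library lay on one side of every MPP library, 2742 of them with GMP higher (22.7%) and 2470 with GMP lower (20.4%). The median difference over all genes was 0.03. These shares are the background for every list below, since a list with 49.2% of its members called is like the genes at large. Centring each library on its median gave a different balance, with 41.3% of calls higher in GMP against 51.7%, and a test against a log2 difference of 0.5 called 1401 genes, 37.3% of them higher.

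Of 6 tested genes of the sorting gates 2 rose and 3 fell, with a median of -0.22. Fcgr3, which encodes CD16, stood between 8.71 and 9.15 in the 4 MPP libraries and at 11.58, 10.87, 10.84, 11.00 and 10.74 in GMP 1 to 5. It rose by 2.11 ± 0.16 (SE, limma adjusted p = 8.15e-07), a 4.32-fold change, with no overlap. Fcgr2b, whose product CD32 is bound by the same antibody, rose by 1.42 ± 0.09 (adjusted p = 1.95e-07). Ly6a, the Sca-1 gene, fell only 1.49-fold, from 7.53 to 7.90 in MPP down to 6.97 to 7.33 in GMP (-0.58 ± 0.10, adjusted p = 5.54e-04), although GMP were sorted without Sca-1. Cd48 did not pass (0.15, adjusted p = 0.438), and Cd34 (-1.11) and Kit (-0.78), whose products both gates or the GMP gate require, fell. These last 3 genes were chosen after their values were seen. Slamf1, which encodes CD150, was below the filter in both groups. A gene used in a gate is no finding between the gated populations.

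**Figure D2:**
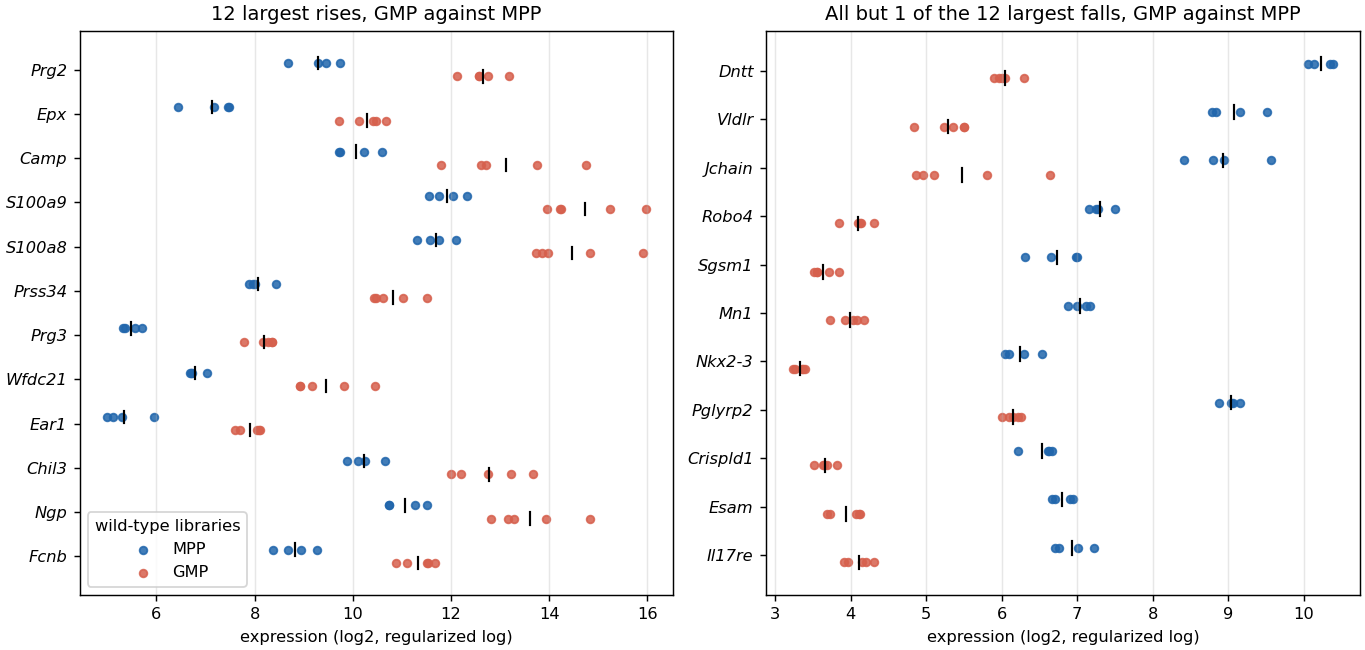
The 12 largest rises and all but 1 of the 12 largest falls with non-overlapping groups. Each point is 1 wild-type library, MPP in blue and GMP in red, on the log2 regularized log scale, and the bar is the group mean. Granule genes make up most of the rises, and Camp spreads from 11.79 to 14.75 among GMP.

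The largest rises were genes of granulocyte granules. Prg2, eosinophil major basic protein, was at 8.67, 9.29, 9.74 and 9.45 in MPP 1, 3, 4 and 5. In GMP 1 to 5 it was at 13.18, 12.58, 12.13, 12.58 and 12.76. It rose 10.2-fold (3.36 ± 0.22, SE, limma adjusted p = 2.67e-07), and the lowest GMP library lay far above the highest MPP library. Epx, eosinophil peroxidase, rose by 3.16 ± 0.23, Prg3 by 2.70 ± 0.13 and Ear1, an eosinophil-associated ribonuclease, by 2.57 ± 0.19. All 7 eosinophil genes tested, of 10 in the list, rose, with a median of 2.57, against 25.4% of all genes. They include the factor gene Cebpe, which is also in the list of myeloid factors. The genes for the IL-5 receptor alpha chain (3.30 to 3.95 in MPP, 3.86 to 4.37 in GMP) and for Ccr3 and Alox15 were under the filter.

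Basophil and mast cell genes moved the same way, 10 of 13 higher and 2 lower, with a median of 1.32, and 4 more of the list were under the filter. Prss34, a basophil serine protease, rose from 7.88 to 8.44 in MPP to 10.43 to 11.52 in GMP, by 2.74 ± 0.21 (adjusted p = 6.96e-07), and GMP 2 held the highest value. Ms4a2, the beta chain of the high-affinity IgE receptor, rose by 2.02 ± 0.14, and Hdc, the histamine-forming decarboxylase, by 1.98 ± 0.12. Cpa3, mast cell carboxypeptidase, rose by 1.32 ± 0.18. The 2 that fell were Gata2 (-0.40), a stem cell and mast cell factor, and Hgf (-0.51), both named after their values were seen. Without MPP 1, MPP 3, MPP 5 or both libraries numbered 3 only 1 of them fell.

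**Figure D3:**
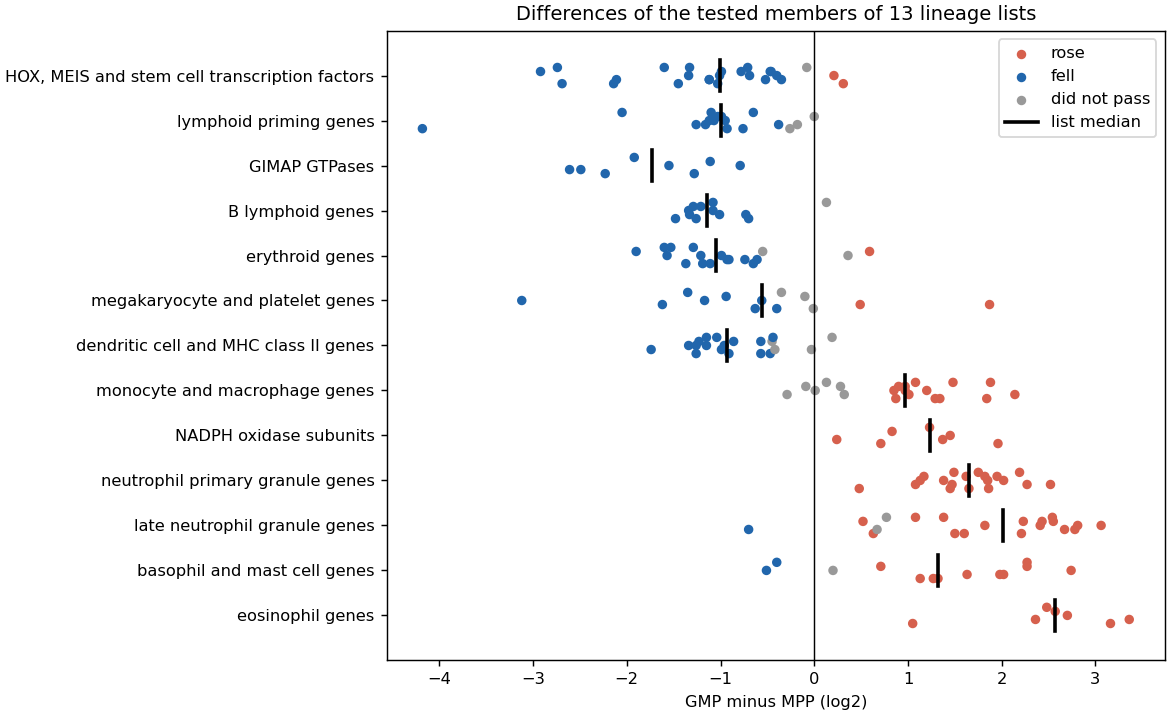
GMP minus MPP (log2) for each tested member of 13 lineage lists. Red points rose, blue points fell and grey points did not pass an adjusted p of 0.05, and the black bar is the median. Stem cell, lymphoid, erythroid and dendritic cell lists lie mostly below 0 and granule, oxidase and monocyte lists above it.

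The list of primary granule genes rose as a whole. It also holds genes whose products are not primary granule contents, among them Clec12a, Hk3, Plac8, Igsf6, Gstm1 and Ms4a3. All 19 tested members passed, with a median of 1.65, and in all 19 the groups did not overlap, where 22.7% of all genes lay that way. Mpo, myeloperoxidase, was already at 15.58, 15.69, 15.57 and 15.58 in MPP 1, 3, 4 and 5 and reached 17.00, 17.48, 17.74, 17.56 and 17.53 in GMP 1 to 5. The rise was 3.63-fold (1.86 ± 0.16, SE, limma adjusted p = 1.96e-06), and GMP 1 was the lowest of its group. Elane, neutrophil elastase, was at 13.34, 13.38, 13.51 and 13.22 in MPP and at 15.95, 15.59, 15.61, 15.63 and 15.39 in GMP, a 4.83-fold rise (2.27 ± 0.13, adjusted p = 8.88e-08) in which GMP 1 was the highest. Ctsg, cathepsin G, rose by 1.95 ± 0.16 from 12.28 to 12.50 in MPP. Cst7, a cystatin of granulocytes, rose by 1.62 ± 0.08, and Fcnb, ficolin B, by 2.52 ± 0.19. Prtn3, proteinase 3, rose by 2.02 and Ctsc, the peptidase that activates the granule proteases, by 0.48, the smallest rise of the list, both chosen after their values were seen. Bpi, the remaining list member, lay between 0.31 and 0.63 in all libraries and was not tested.

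The start regions of these genes were read for letters that C/EBP and PU.1 factors are known to bind. RefSeq start regions (GRCm38.p6, 250 bases before to 50 after the start) matched 9685 of the 12098 genes, and the first listed start was used for the 1932 genes with several. TTGCNNAA stood for C/EBP and GAGGAAGT for PU.1, each searched on both strands, and matches of different motifs may share bases. C/EBP letters were in 8.32% of all these regions, in 16.2% of genes over 2-fold higher in GMP (51 of 314) and in 8.47% of genes over 2-fold lower (45 of 531). PU.1 letters were in 3.46%, 5.73% and 4.52%. In the primary granule list 5 of 17 regions held C/EBP letters (29.4%), those of Ms4a3 and Clec12a among them, and 4 of 17 PU.1 letters (23.5%). Among the late neutrophil genes the shares were 8 of 18 (44.4%) and 5 of 18 (27.8%). RUNX letters (TGTGGT) were in 12.9% of all regions, 22.9% of those over 2-fold higher and 15.4% of those over 2-fold lower. GATA letters (AGATAA) were in 6.48%, 11.5% and 10.5%. Shares of GATA, RUNX and PU.1 letters were thus above those of all regions in both directions, and C/EBP letters only slightly so among lower genes. MYB letters (AACNGT) were in 21.3%, 28.0% and 19.6%, and HOXA9 letters (TGATTTAT) in 0.403%, 0.318% and 0.753%. In the primary granule list RUNX letters and MYB letters were each in 6 of 17 regions (35.3%), more than C/EBP or PU.1 letters. Among the late neutrophil genes they were in 4 of 18 (22.2%) and 5 of 18 (27.8%). A match of letters is a description and not a site, and these shares were not tested.

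Regions of Mpo, Elane and Prtn3, 3 of the 4 primary granule genes with PU.1 letters, are printed 5′ to 3′ on the gene's strand. Fcnb and the late granule gene Ngp are added because each has 2 C/EBP matches. Capitals mark the C/EBP or PU.1 letters, found at -224 from the start in Mpo, at -85 in Elane, at -95 in Prtn3, at -235 and -123 in Fcnb and at -138 and -11 in Ngp. They lie in chr11:87793534-87793833 (+) for Mpo, chr10:79886062-79886361 (+) for Elane, chr10:79879417-79879716 (+) for Prtn3, chr2:28084829-28085128 (-) for Fcnb and chr9:110419558-110419857 (+) for Ngp. They were chosen after the matches were seen.
Mpo: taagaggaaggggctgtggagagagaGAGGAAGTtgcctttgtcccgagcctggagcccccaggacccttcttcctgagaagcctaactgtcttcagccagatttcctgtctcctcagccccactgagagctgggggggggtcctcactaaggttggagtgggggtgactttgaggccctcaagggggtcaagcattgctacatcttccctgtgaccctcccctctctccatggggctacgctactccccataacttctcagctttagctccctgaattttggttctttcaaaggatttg
Elane: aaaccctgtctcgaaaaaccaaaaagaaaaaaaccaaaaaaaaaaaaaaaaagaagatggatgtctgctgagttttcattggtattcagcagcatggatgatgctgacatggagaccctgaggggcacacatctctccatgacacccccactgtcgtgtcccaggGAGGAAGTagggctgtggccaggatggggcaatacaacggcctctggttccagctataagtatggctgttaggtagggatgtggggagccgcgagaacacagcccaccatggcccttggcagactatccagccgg
Prtn3: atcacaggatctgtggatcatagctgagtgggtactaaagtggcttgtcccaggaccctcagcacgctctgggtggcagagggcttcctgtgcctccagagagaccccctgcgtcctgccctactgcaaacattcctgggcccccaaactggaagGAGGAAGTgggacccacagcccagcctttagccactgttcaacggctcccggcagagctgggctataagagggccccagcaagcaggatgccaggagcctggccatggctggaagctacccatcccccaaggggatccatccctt
Fcnb: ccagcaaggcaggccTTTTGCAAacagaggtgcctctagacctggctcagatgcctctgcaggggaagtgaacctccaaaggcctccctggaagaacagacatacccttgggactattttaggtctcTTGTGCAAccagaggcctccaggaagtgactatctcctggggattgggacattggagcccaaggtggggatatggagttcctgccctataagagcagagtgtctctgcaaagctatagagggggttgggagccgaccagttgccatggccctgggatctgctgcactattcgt
Ngp: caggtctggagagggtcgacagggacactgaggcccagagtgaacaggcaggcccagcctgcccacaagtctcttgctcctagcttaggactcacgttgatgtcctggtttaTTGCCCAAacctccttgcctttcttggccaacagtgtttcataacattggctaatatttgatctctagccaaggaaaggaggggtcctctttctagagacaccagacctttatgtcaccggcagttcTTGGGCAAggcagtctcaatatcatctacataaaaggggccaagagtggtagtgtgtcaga

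Late neutrophil granule genes, made by myelocytes and later cells, were also higher in GMP, but varied more from library to library. Of 20 tested, 17 rose and 1 fell, with a median of 2.01. Camp, the cathelicidin precursor, was at 10.23, 9.73, 10.60 and 9.71 in MPP 1, 3, 4 and 5 and at 14.75, 12.72, 11.79, 13.75 and 12.62 in GMP 1 to 5. It rose 8.32-fold (3.06 ± 0.47, SE, limma adjusted p = 2.29e-04), without overlap, and the GMP libraries themselves spread over more than 2 log2 units. S100a8, a calprotectin subunit, was at 11.75, 11.58, 12.11 and 11.30 in MPP and at 15.91, 13.98, 13.74, 14.84 and 13.85 in GMP. It rose by 2.78 ± 0.39 and its partner S100a9 by 2.81 ± 0.36. Ltf, lactoferrin, was at 10.39, 9.75, 10.66 and 9.71 in MPP and at 11.96, 11.78, 11.54, 13.76 and 12.64 in GMP (2.21 ± 0.39, adjusted p = 5.90e-04). Ngp, neutrophilic granule protein, rose by 2.54 ± 0.35, Chil3, a chitinase-like protein, by 2.55 ± 0.30 and Wfdc21 by 2.67 ± 0.27. GMP 1 was highest for Camp, S100a8, S100a9 and Wfdc21, and GMP 4 for Ltf, Ngp and Chil3. Mmp9 (0.67, adjusted p = 0.216) and Retnlg (0.77, adjusted p = 0.201) did not pass, and Padi4 (-0.70) was the only member that fell, these 3 chosen after their values were seen. No member fell without MPP 1, MPP 5, GMP 1, GMP 2 or GMP 3, and between 15 and 19 rose as single libraries were left out. The mean level over the 20 genes ran from 7.69 to 8.36 in MPP and from 8.91 to 10.52 in GMP, and whether a few later neutrophil cells were in the gate was not tested.

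Oxidase and monocyte genes followed the granule genes. All 7 NADPH oxidase subunit genes rose, with a median of 1.23. Cybb, the catalytic subunit, was at 9.29 ± 0.28 in MPP (SD, n = 4) and at 10.83 to 11.91 in GMP (difference 1.96 ± 0.20, adjusted p = 7.93e-06), highest in GMP 4. The cytosolic subunit genes Ncf1 (1.37 ± 0.12) and Ncf4 (1.23 ± 0.10) rose without overlap. The monocyte and macrophage list had 14 of 20 genes higher and 0 lower, with a median of 0.97. Csf1r, the M-CSF receptor, was at 8.84, 9.39, 8.75 and 9.27 in MPP and at 9.90, 10.43, 10.65, 10.17 and 10.64 in GMP (1.29 ± 0.17, adjusted p = 7.96e-05). Ly6c2, a surface marker of classical monocytes, rose by 2.14 ± 0.11, and Fcer1g, the common Fc receptor gamma chain, by 1.34 ± 0.09. In the myeloid receptor list of Toll-like, lectin and NOD receptors 11 of 19 rose and 2 fell, with a median of 0.33. Clec5a, a myeloid lectin, rose by 2.23 ± 0.11 and Tlr2 by 0.36 ± 0.10, while Clec4d differed by 0.04 (adjusted p = 0.897). Those that fell were the endosomal RNA sensors Tlr3 (-1.14) and Tlr7 (-1.08), chosen after their values were seen.

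Transcription factors of the myeloid lineage rose in most cases, 12 of 19, with 2 falls and a median of 0.68. Cebpa, the factor needed to form GMP, was at 9.57, 9.65, 9.40 and 10.17 in MPP 1, 3, 4 and 5 and at 10.33, 10.84, 10.93, 10.68 and 10.96 in GMP 1 to 5. It rose 2.07-fold, by 1.05 ± 0.16 (SE, limma adjusted p = 2.19e-04), and MPP 5 lay closest to GMP. Cebpe, which drives the later granule stage, rose 5.12-fold, from 7.76 to 8.07 in MPP to 10.04 to 10.60 in GMP (2.36 ± 0.12, adjusted p = 4.52e-08). Cebpd rose by 1.65 ± 0.10 (adjusted p = 1.07e-07). Named after their values were seen, Gfi1 (1.31), Klf4 (1.36), Cebpb (1.24), Spi1, the PU.1 gene (0.87), and Irf8 (0.68) rose, and Irf4 (-1.08) and Runx2 (-0.87) fell. With quantile normalization 5 of the 19 fell instead of 2.

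Stem cell transcription factors fell nearly together. Of 25 tested members of the HOX, MEIS and stem cell list 22 fell and 2 rose, with a median of -1.01, against 23.7% of all genes falling. Meis1, a HOX cofactor, was at 10.43, 10.31, 10.30 and 10.31 in MPP and at 8.18, 8.38, 8.05, 8.13 and 8.23 in GMP. It fell 4.42-fold (adjusted p = 8.50e-09), and no library lay between the groups. Hoxa9 fell by 1.12 ± 0.15, from 8.86 to 9.18 in MPP to 7.41 to 8.21 in GMP. Hlf, a factor of stem cell maintenance, fell by 2.69 ± 0.09 and Nkx2-3 by 2.92 ± 0.12. Mecom (-2.74) and Hoxa10 (-1.60), both chosen after their values were seen, also fell, and 13 members fell over 2-fold. The 2 that rose were Myb (0.31), needed by cycling progenitors, and Fli1 (0.21), and Runx1 did not pass (-0.08, adjusted p = 0.479), all 3 named after their values were seen. No member of the list rose with quantile normalization or without both libraries numbered 3, and 1 rose without any 1 of MPP 1, MPP 3, MPP 4, MPP 5, GMP 3, GMP 4 or GMP 5.

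Surface genes of stem and endothelial cells fell in 14 of 18 cases and rose in 2, with a median of -1.51. The falls were 8 with a minimum mean of 6. Robo4, a guidance receptor of stem and endothelial cells, was at 7.50, 7.28, 7.25 and 7.15 in MPP and at 4.31, 4.14, 4.12, 4.10 and 3.84 in GMP, a 9.13-fold fall (-3.19 ± 0.12, adjusted p = 8.36e-09). Esam, an adhesion molecule of stem cells, fell by 2.86 ± 0.13. Procr, the protein C receptor, fell by 2.23 ± 0.13. Flt3, which marks MPP with lymphoid potential, was at 11.29, 11.45, 11.48 and 11.30 in MPP and at 8.72, 8.85, 8.89, 8.76 and 8.83 in GMP. It fell 5.94-fold (-2.57 ± 0.07, adjusted p = 1.59e-09). Cxcr4 (0.86) and Cd9 (0.77), chosen after their values were seen, were the 2 that rose. Other large falls outside the lists were the lipoprotein receptor Vldlr (-3.79 ± 0.17), the immunoglobulin joining chain Jchain (-3.45 ± 0.34), Sgsm1 (-3.10), the transcriptional coregulator Mn1 (-3.05), the peptidoglycan amidase Pglyrp2 (-2.89), Crispld1 (-2.87) and the receptor Il17re. In Jchain GMP 1 (6.64) lay above the other GMP libraries (4.86 to 5.81). Among the largest falls, the GMP means of Nkx2-3 (3.32), Sgsm1 (3.64), Crispld1 (3.66), Esam (3.94) and Mn1 (3.99) were under 4. These genes passed the filter only through MPP and could only count as falls.

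The largest fall of all was in a lymphoid gene. Dntt, the terminal transferase that adds nucleotides at antigen receptor joints, was at 10.05, 10.38, 10.34 and 10.13 in MPP 1, 3, 4 and 5. It was at 6.05, 6.30, 5.90, 6.01 and 5.97 in GMP 1 to 5, an 18.1-fold fall (-4.18 ± 0.10, SE, limma adjusted p = 5.48e-10), with both groups tight. Of 17 lymphoid priming genes 14 fell and 0 rose, with a median of -0.99. Satb1, a chromatin organizer of lymphoid progenitors, fell by 1.16 ± 0.09 and the E protein gene Tcf4 by 1.10 ± 0.09. Il7r, the IL-7 receptor, fell by 2.05, while Ikzf1 (-0.18, adjusted p = 0.143) did not pass, both chosen after their values were seen. All 8 GIMAP genes, a cluster of lymphocyte GTPases, fell, with a median of -1.73. Of these, Gimap7 (mean 4.75 in MPP and 3.47 in GMP) passed the filter only through MPP. Gimap1 went from 7.95 to 8.25 in MPP to 5.71 to 6.00 in GMP (-2.23 ± 0.09), and Gimap6 fell by 2.49 ± 0.15 and Gimap5 by 1.92 ± 0.12. Neighbouring GIMAP genes resemble each other in sequence, so how reads were split among them is uncertain.

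B lymphoid genes were lower in GMP. Of 12 tested, from a list of 16, 11 fell and 0 rose, with a median of -1.15. Ebf1, which sets up the B lineage, was at 5.15, 6.01, 5.63 and 5.37 in MPP and at 4.19, 4.39, 4.11, 4.53 and 4.20 in GMP (-1.26 ± 0.16, adjusted p = 6.04e-05). Pax5 was at 4.37, 4.59, 4.75 and 4.95 against 3.91, 3.54, 3.41, 3.68 and 3.71 (-1.01 ± 0.14), and Cd72 fell by 1.08 ± 0.12. Pax5 was among the members just inside the filter, with a mean of 4.101 over the 9 libraries, as were Gimap7 (4.037) and Cd8a (4.069). Vpreb3 (3.966), Il5ra (3.933), Dusp4 (3.921) and Igll1 (3.903) lay just outside it. The GMP means of Pax5 (3.65), Gimap7 (3.47) and Cd8a (3.55) were under 4, so they passed the filter only through MPP and could only count as falls. The same held for Gata3 (GMP mean 3.81), Siglech (3.74), Emcn (3.27) and Itga9 (3.70), named in this and other paragraphs. With a minimum mean of 6, 1 B lymphoid gene and 2 T and NK cell genes fell. Of 10 T and NK cell genes tested, from a list of 20, 8 fell and 1 rose, with a median of -1.11. Gata3, a T cell factor that stem cells also use, fell by 2.30 ± 0.12, and Lck, a T cell kinase, by 1.75 ± 0.12. The member that rose, Nkg7 (1.47), a cytotoxic granule protein, was named after its value was seen. Cd3e, a defining T cell marker, lay between 1.92 and 3.21 and was not tested.

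Erythroid genes fell in 15 of 18 tested cases, from a list of 24, and rose in 1, with a median of -1.05. Gata1, the erythroid master factor, was at 7.38, 7.31, 7.21 and 7.05 in MPP and at 6.70, 7.16, 6.29, 6.33 and 6.46 in GMP. It fell by 0.65 ± 0.16 (adjusted p = 0.00620), and GMP 2 overlapped with MPP. Klf1 fell by 0.91 ± 0.15, and again GMP 2 (6.44) was above the other GMP libraries (5.68 to 5.89). Car2, carbonic anhydrase 2, fell by 1.90 ± 0.18. The transferrin receptor gene Tfrc (0.59), chosen after its value was seen, was the member that rose. The globins Hba-a2, Hbb-b1 and Hbb-b2 were listed at 0. Rpl26 and Ndufs5, which every cell uses, were also listed at 0 in all 9 libraries, so a listed 0 does not show that the RNA was absent. Of 13 megakaryocyte and platelet genes tested, from a list of 20, 8 fell and 2 rose, with a median of -0.56. Itga2b, the CD41 gene, differed by -0.40 ± 0.11 (adjusted p = 0.0108) with overlap and did not pass without both libraries numbered 3 (-0.32, adjusted p = 0.0786). Pf4, platelet factor 4, went the other way, at 4.66, 4.65, 4.19 and 4.33 in MPP and 7.64, 7.03, 5.63, 5.78 and 5.53 in GMP (1.87 ± 0.39, adjusted p = 0.00187). GMP 1 and GMP 2 held the highest Pf4. Vwf (0.49), named after its value was seen, also rose.

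Dendritic cell and MHC class II genes fell in 16 of 20 cases and rose in 0, with a median of -0.93. The falls were 9 with a minimum mean of 6. Cd74, the invariant chain, was at 11.01, 11.97, 11.82 and 11.89 in MPP 1, 3, 4 and 5 and at 10.24, 10.25, 10.67, 10.35 and 10.55 in GMP. It fell by 1.26 ± 0.18 (SE, limma adjusted p = 1.17e-04), and MPP 1 lay below the other MPP libraries. Siglech, a plasmacytoid dendritic cell receptor, fell by 1.74 ± 0.12, and Ccr9, also on the lymphoid priming list, by 1.26 ± 0.14. Among markers of marrow stroma and endothelium 5 of 16 were tested, 3 fell and 1 rose. The number that rose was 2 without GMP 1, MPP 3 or both libraries numbered 3, in the fit to all 15 libraries, and with a replicate block or a ribosomal protein covariate. Emcn (-2.25 ± 0.13) and Pecam1 (-0.31 ± 0.08) are also expressed by stem cells, and Vcam1, which rose by 1.77, was named after its value was seen. Cxcl12, the defining stromal factor, lay between 1.28 and 1.92, and Col3a1 was listed at 0, which, as for the globins, does not show absence.

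**Figure D4:**
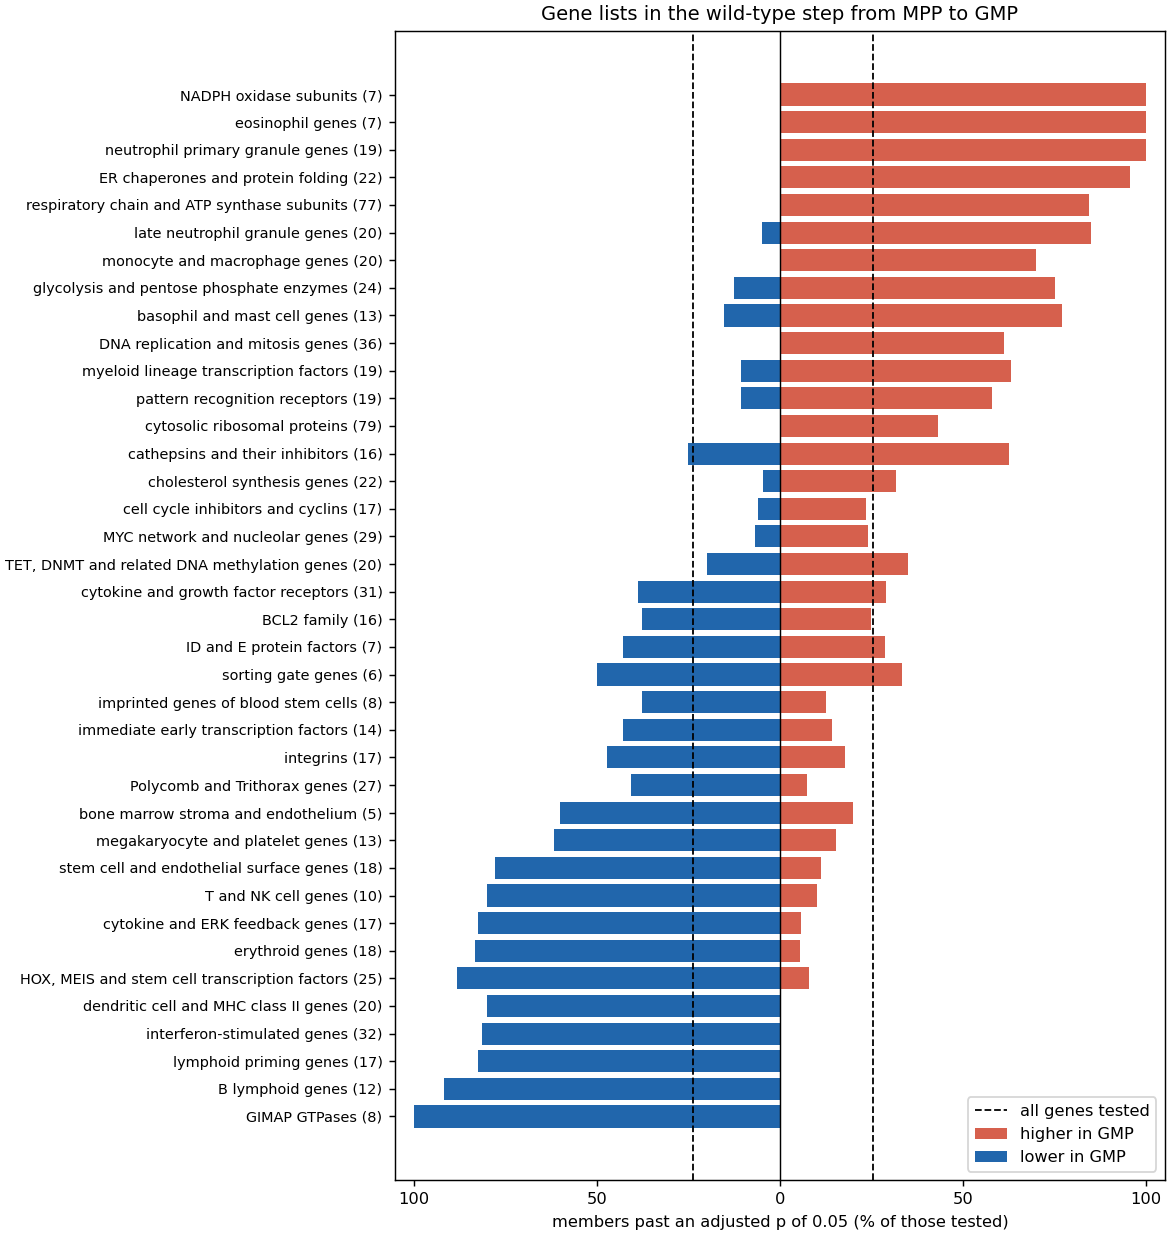
Share of the tested members of 38 gene lists that were higher (red, to the right) or lower (blue, to the left) in GMP at an adjusted p of 0.05, with the number tested in parentheses. Dashed lines mark the shares over all 12098 genes, 25.4% higher and 23.7% lower.

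Receptors of cytokines moved in both directions. Of 31 tested 9 rose and 12 fell, with a median of -0.13, against 25.4% higher and 23.7% lower over all genes. Csf3r, the G-CSF receptor, was at 11.45, 11.44, 11.46 and 11.70 in MPP and at 11.28, 11.33, 11.62, 11.61 and 11.43 in GMP, and did not pass (-0.06 ± 0.10, adjusted p = 0.667), though with quantile normalization it did (-0.28, adjusted p = 0.0247). Csf2ra, the GM-CSF receptor alpha chain, rose 2.01-fold (1.01 ± 0.09). Flt3, Il7r and the IL-1 receptor gene Il1r1 (-2.27, named after its value was seen) fell. Feedback genes of cytokine and ERK signalling fell in 14 of 17 cases and rose in 1, with a median of -0.59. The falls were 8 with a minimum mean of 6. Socs2 was low throughout, at 5.44, 5.09, 5.57 and 5.61 in MPP and 4.73, 5.23, 4.74, 4.96 and 4.89 in GMP (-0.52 ± 0.14, adjusted p = 0.00951), and its call was lost with quantile normalization (-0.17, adjusted p = 0.336). The ERK phosphatase Dusp6 differed by -0.45 ± 0.16 (adjusted p = 0.0317) with overlap, and Dusp5 by -1.36 ± 0.12. The Dusp6 call was lost without MPP 1 (adjusted p = 0.102), MPP 4 (0.0957), GMP 2 (0.0677), GMP 5 (0.0589) or both libraries numbered 3 (0.0520), and in the fit to all 15 libraries (0.0564). Of 14 immediate early factors 6 fell and 2 rose (5 and 4 with quantile normalization), with Egr1 (-1.08 ± 0.16) and Jund (-0.66 ± 0.10) lower and Fos higher, at 5.30 to 5.65 in MPP and 6.08 to 6.85 in GMP.

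Interferon-stimulated genes were lower in GMP in 26 of 32 cases and higher in 0 (1 without GMP 1), with a median of -0.80. The falls were 17 with a minimum mean of 6. Irf7, which amplifies the interferon response, was at 7.44, 7.20, 7.23 and 7.26 in MPP and at 5.98, 6.21, 5.93, 6.04 and 5.84 in GMP (-1.28 ± 0.10, adjusted p = 8.17e-07). Oas2, an antiviral RNA sensor, fell by 1.65 ± 0.08 with SDs of 0.05 and 0.08. Ifi44 (-2.01) and Iigp1 (-2.00), named after their values were seen, had the largest falls.

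Replication and mitosis genes rose by small amounts. Of 36 tested 22 rose and 0 fell, with a median of 0.30 and none over 2-fold. The count was 14 with median centring, 11 with quantile normalization and 14 without both libraries numbered 3. In a test against a log2 difference of 0.5 it was 1. Rrm2, a ribonucleotide reductase subunit, rose by 0.83 ± 0.08, from 10.25 to 10.40 in MPP to 11.07 to 11.29 in GMP. Mcm5, part of the replicative helicase, was at 11.71, 11.55, 11.63 and 11.54 in MPP and at 11.71, 12.12, 12.14, 12.14 and 12.10 in GMP (0.43 ± 0.10, adjusted p = 0.00460), so that GMP 1 lay at the level of MPP, and its call was lost with quantile normalization (0.20, adjusted p = 0.102). The proliferation marker Mki67 did not pass (0.25 ± 0.17, adjusted p = 0.242) except with array weights (0.35, adjusted p = 0.0185). Of 17 cell cycle inhibitors and cyclins 4 rose and 1 fell (Ccnd1, -0.81 ± 0.15), with a median of 0.14 that was -0.06 with quantile normalization, and Cdk6 did not pass (-0.24, adjusted p = 0.156) except with quantile normalization (-0.69, adjusted p = 0.00692) or a ribosomal protein covariate (-0.24, adjusted p = 0.00757). The number that rose was 2 without MPP 1, MPP 3, MPP 5 or GMP 5, and the number that fell was 2 without MPP 5 or GMP 1 and with a replicate block, and 3 without GMP 3. Under other scalings the balance turned, with 1 rising and 3 falling after median centring and 3 rising and 5 falling after quantile normalization, and it was 7 and 2 with array weights and 8 and 5 with a ribosomal protein covariate. In the MYC and nucleolar list 7 of 29 rose and 2 fell, a smaller share than the background, with a median of 0.13 that was -0.01 with quantile normalization. The number that rose was 4 with median centring, with quantile normalization (where 4 fell) and without both libraries numbered 3, and 11 with a ribosomal protein covariate. Myc was at 11.61 to 12.14 in MPP and 11.22 to 11.87 in GMP (-0.26 ± 0.14, adjusted p = 0.138), and passed with quantile normalization (-0.51, adjusted p = 0.00794). Mycn, its stem cell relative, was at 7.13, 7.55, 7.00 and 7.34 in MPP and at 5.27, 5.46, 4.92, 4.94 and 5.14 in GMP, a 4.31-fold fall (-2.11 ± 0.14, adjusted p = 3.34e-07).

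Genes of secretory protein folding rose in 21 of 22 cases, with a median of 0.89. Hspa5, the ER chaperone BiP, was at 12.10, 12.68, 12.78 and 12.58 in MPP and at 13.55, 13.81, 13.71, 13.68 and 13.60 in GMP (1.13 ± 0.14, adjusted p = 3.27e-05). Calr, calreticulin, rose by 1.00 ± 0.10 (0.44, adjusted p = 0.0548, with quantile normalization) and Sdf2l1, a BiP partner, by 1.46 ± 0.10. The stress factor Ddit3 (-0.00, adjusted p = 0.992), named after its value was seen, was the member that did not pass.

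Energy metabolism genes were higher in GMP. Respiratory chain and ATP synthase genes rose in 65 of 77 cases and fell in 0, with a median of 0.69, against 25.4% of all genes rising. In a test against a log2 difference of 0.5 only 1 rose. Uqcrc1, a complex III core protein, rose by 0.70 ± 0.07 with MPP at 10.73 to 10.78 and GMP at 11.37 to 11.57. The respiratory chain genes lay 0.90 higher in GMP 1 than in the other GMP libraries. Of 24 glycolysis and pentose phosphate genes 18 rose and 3 fell, with a median of 0.70. G6pdx, which opens the pentose phosphate pathway that feeds NADPH to the oxidase, was at 9.81, 9.94, 9.81 and 9.98 in MPP and at 10.42, 10.91, 10.99, 11.08 and 11.02 in GMP (1.00 ± 0.12, adjusted p = 3.97e-05). Hk2 rose by 0.68 ± 0.15, and Pfkm, the muscle-type phosphofructokinase, fell by 1.06 ± 0.09. The others that fell, Aldoc (-1.01) and the glucose transporter gene Slc2a3 (-0.83), and the largest rise, Pgd (1.38), were named after their values were seen. Of 22 cholesterol synthesis genes 7 rose and 1 fell (2 without GMP 2 and with median centring, array weights or a replicate block), against 25.4% and 23.7% of all genes, with Fdps up by 1.15 ± 0.11 and Sqle not past the threshold (-0.08, adjusted p = 0.611).

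Cytosolic ribosomal protein genes depended on single libraries and on the scaling. Of 79 tested 34 rose and 0 fell, with a median of 0.49. Without GMP 1, whose ribosomal protein genes stood 1.08 above the other GMP libraries, 64 rose and the median was 0.31, and without GMP 2, MPP 1, MPP 3, MPP 4 or MPP 5 the number was 18, 18, 15, 20 and 18. It was 17 without both libraries numbered 3, 22 with median centring and 58 with array weights. A ribosomal protein covariate is made from these same genes and removes their spread within a group, so its count for them is not used. With quantile normalization 2 rose and 3 fell, with a median of 0.07. Rps2 was at 10.79 to 10.94 in MPP and 11.13 to 11.42 in GMP (0.42 ± 0.08, adjusted p = 0.00111). Many of these genes have near-identical processed copies, so their values are uncertain.

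TET, DNMT and related DNA methylation genes, which bear on the subject of the series, moved in different directions. Of 20 tested 7 rose and 4 fell, with a median of 0.15, against 25.4% higher and 23.7% lower over all genes. The number that rose was 4 without GMP 4, 3 with median centring and 4 with quantile normalization. Tet2, which oxidizes 5-methylcytosine, was at 9.73, 9.81, 9.89 and 9.71 in MPP 1, 3, 4 and 5 and at 10.13, 9.87, 10.00, 10.19 and 10.13 in GMP 1 to 5. The difference was 0.28 ± 0.08 (SE, limma adjusted p = 0.0156) with overlap, and it did not pass with median centring (0.21, adjusted p = 0.0560) or quantile normalization (0.13, adjusted p = 0.207). Dnmt3b, a de novo methyltransferase, was at 9.66 to 9.81 in MPP and 8.54 to 9.19 in GMP (-0.94 ± 0.11, adjusted p = 3.28e-05). Idh1, which makes the TET cofactor 2-oxoglutarate, rose by 1.25 ± 0.09. Named after their values were seen, Tet1 (-1.07) and Dnmt3a (-0.39) fell, and Tet3 (-0.14, adjusted p = 0.352) and the maintenance enzyme gene Dnmt1 (0.15, adjusted p = 0.390) did not pass. In the Polycomb and Trithorax list 11 of 27 fell and 2 rose, with a median of -0.16, and 1 rose without MPP 1, MPP 4, GMP 3, GMP 4, GMP 5 or both libraries numbered 3, and with median centring. Ezh2 was at 10.40 to 10.55 and 10.44 to 10.57 (-0.00 ± 0.07, adjusted p = 0.969), its relative Ezh1 fell by 0.32 ± 0.08 and Cbx7, a stem cell Polycomb subunit, by 1.18 ± 0.10.

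The remaining lists were mixed, where 25.4% of all genes rose and 23.7% fell. In the BCL2 family 4 of 16 rose and 6 fell, with a median of -0.02 that was 0.04 with quantile normalization. Bcl2 fell by 0.67 ± 0.09, the pro-apoptotic Bid rose by 0.69 ± 0.08 and Mcl1 did not pass (-0.12, adjusted p = 0.243) except with quantile normalization (-0.30, adjusted p = 0.00647). Of 7 ID and E protein factors 2 rose and 3 fell, and 1 rose with median centring, with quantile normalization or without both libraries numbered 3. Id1, an inhibitor of E proteins, rose by 1.72 ± 0.12, from 4.75 to 5.37 in MPP to 6.71 to 7.00 in GMP, Tal1 fell by 0.99 ± 0.08 and Id2 did not pass (0.13, adjusted p = 0.570). Of 17 integrin genes 3 rose and 8 fell, 5 without MPP 3 or without both libraries numbered 3. Itgam (0.87 ± 0.20) and Itgb2 (0.99 ± 0.16), the chains of Mac-1, rose, both highest in GMP 4, and Itga9 fell by 2.33 ± 0.14. Among 16 cathepsins and cystatins 10 rose and 4 fell, and Cst3, cystatin C, rose by 0.49 ± 0.14 (0.23, adjusted p = 0.147, with quantile normalization). Only 8 of 19 imprinted genes passed the filter, and 1 rose (2 without GMP 1) and 3 fell. Ppp1r9a fell by 1.87 ± 0.11, Grb10 did not pass (-0.05, adjusted p = 0.758), H19 lay between -0.18 and 0.22, and Cdkn1c between 3.62 and 4.41 in MPP and 3.08 and 3.35 in GMP.

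The step was then set against that of T2F3 mice. A test of the difference of the steps in all 15 libraries called 274 of 12133 genes (2.26%), and this count ran from 79 to 586 as single libraries were left out. Among 116 named genes given here 18 passed in that test. Many of the 116 were named for their wild-type values, and the same wild-type libraries enter the test. That choice favours a smaller step in T2F3, so this count cannot be compared with 2.26%. Flt3 was at 11.21, 11.34 and 11.40 in T2F3 MPP and at 9.87, 9.93 and 10.47 in T2F3 GMP. That is a step of -1.23 against -2.57 in wild-type (difference 1.34 ± 0.17, SE, limma adjusted p = 4.66e-04). T2F3 mice carry an altered Flt3 allele (Flt3ITD), so this difference is in the engineered gene itself. Mycn was at 9.15 to 9.36 in T2F3 MPP and 4.64 to 5.02 in T2F3 GMP, a step of -4.44 (difference -2.33 ± 0.21, adjusted p = 4.43e-05). Itga9 was at 3.65 to 3.82 in T2F3 MPP, the level of wild-type GMP, with a step of -0.45 (difference 1.89 ± 0.22, adjusted p = 2.85e-04). Satb1 was at 8.60, 9.23 and 9.08 in T2F3 MPP and at 8.91, 8.95 and 9.20 in T2F3 GMP, a step of 0.05 (difference 1.21 ± 0.18, adjusted p = 0.00300). For Mpo, Elane, Camp, Cebpa and Dntt the difference of the steps did not pass, at adjusted p = 0.950, 0.906, 0.815, 0.523 and 0.673 in that order.

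**Figure D5:**
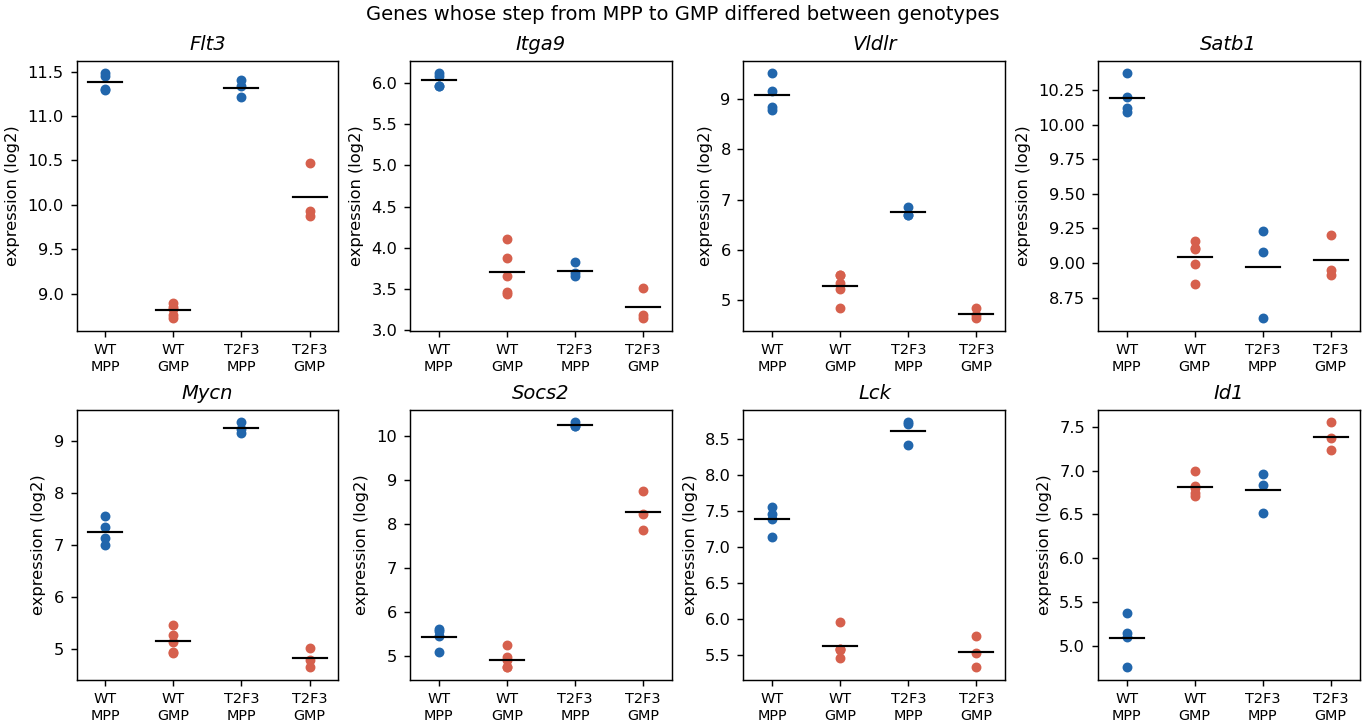
Log2 expression of 8 genes whose step differed between genotypes, in wild-type (WT) and T2F3 libraries. Each point is 1 library and the bar is the group mean, MPP in blue and GMP in red. T2F3 GMP libraries hold more Flt3 (9.87 to 10.47) than wild-type ones (8.72 to 8.89), and Flt3 is itself the altered gene in T2F3. T2F3 MPP libraries hold less Itga9 (3.65 to 3.82) than wild-type ones (5.96 to 6.12).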

How the data were processed

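Libraries were made with a stranded kit for mRNA, according to the labels' protocols. What the authors deposited is a single table (24424 genes) of log2 values, regularized log by its name. STAR, Bowtie, HOMER, DESeq2 and mm9 are named in the submitters' processing notes, with no version or role. Values ran from -3.82 to 19.64, and 5135 genes were 0 throughout. Entrez IDs matched symbols for 24345 genes in the NCBI table of GRCm38.p6. Columns were matched to samples by genotype, number and population, and 0 columns were left over.

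Wild-type GMP and MPP were compared with limma 3.58.1 (R 4.3.3, trend and robust, no minimum fold, two-sided, Benjamini-Hochberg adjustment over all 12098 genes, threshold 0.05). The model was tested on simulated data. A fit to all 15 libraries tested the T2F3 step minus the wild-type step. Lists (39, with 871 genes, 762 tested) are described by counts. Members and lists were chosen with earlier results of these data known. Named genes were the 12 largest rises and 12 largest falls with groups apart, leaving out predicted genes, RIKEN clones, pseudogenes, small RNA genes and antigen receptor segments, the first 2 genes of each list and the other tested member with the smallest p, 124 in all. A few of these genes are not reported here. The ribosomal protein, respiratory chain and sex-linked lists gave no first genes, and the sex-linked list no other member. Tables were joined with pandas 2.3.3 and NumPy 2.4.6 in Python 3.11.15, and Matplotlib 3.10.9 drew the figures. Alternatives are given in the closing section.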

Additional observations from a re-analysis of the deposited data

Results flagged for a closer look

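In 18 of the 116 named genes given here the step from MPP to GMP differed between wild-type and T2F3 mice. The test was of the difference itself (T2F3 step minus wild-type step, limma adjusted p under 0.05). Over all genes in that test 2.26% passed. The shares cannot be compared, since many of the 116 were named for their wild-type values, which favours a smaller step in T2F3. Vldlr (difference 1.76, adjusted p = 0.00117), Meis1 (0.67, 0.0475), Hlf (1.11, 0.0204), Flt3 (1.34, 4.66e-04) and Itga9 (1.89, 2.85e-04) had a less negative step in T2F3. Of these, Flt3 is itself the gene altered in T2F3 mice. Of the HOX, MEIS and stem cell list 3 of 25 members passed in that direction and 1 in the other, and of the stem cell and endothelial surface list 3 of 18 and 0. Pecam1 differed by 0.72 (0.0226), with a T2F3 step of 0.41 against -0.31. Among lymphoid genes Satb1 (1.21, adjusted p = 0.00300), Tcf4 (0.62, 0.0496) and Ebf1 (1.05, 0.0482) also had a less negative step in T2F3. Lck (-1.32, 0.00300) had a more negative one. In T2F3 MPP, Ebf1 was at 3.14 to 3.70, under the level of wild-type GMP (4.11 to 4.53).

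Mycn (-2.33, adjusted p = 4.43e-05) and the cytokine feedback gene Socs2 (-1.46, 0.00676) had a more negative step in T2F3, from T2F3 MPP levels of 9.15 to 9.36 and 10.21 to 10.30. The step of the interferon-stimulated gene Oas2 was less negative (1.30, 0.0175), and T2F3 GMP 1 (6.38) lay below the other T2F3 GMP libraries (7.36 and 7.45). Genes with a smaller positive step in T2F3 were Id1 (-1.11, 0.00955), Cst7 (-0.75, 0.0485), Sdf2l1 (-0.79, 0.0428) and Uqcrc1 (-0.55, 0.0314). The imprinted gene Grb10, which did not pass in wild-type, differed by 0.95 (0.0307), from 5.43 to 5.72 in T2F3 MPP to 6.23 to 6.63 in T2F3 GMP.

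A single library lay apart from its group in 14 of 234 tests of a gene in a group. That is near the 5% of tests that chance gives, so a single entry here is not a finding. Of the 14, 4 were in GMP 1. In GMP 1 these were Lck at 5.96 (others 5.46 to 5.59), Clec4d at 6.19 (5.10 to 5.30), Mcm5 at 11.71 (12.10 to 12.14) and G6pdx at 10.42 (10.91 to 11.08). In GMP 2 Klf1 was at 6.44 (5.68 to 5.89), and in GMP 3 Fos was at 6.85 (6.08 to 6.30). In MPP 1 Meis1 was at 10.43 (10.30 to 10.31), Hlf at 11.05 (10.70 to 10.73) and Cd74 at 11.01 (11.82 to 11.97). In MPP 3 Mpo was at 15.69 (15.57 to 15.58) and Emcn at 5.20 (5.59 to 5.67). In MPP 4 Wfdc21 was at 7.02 (6.69 to 6.72), and in MPP 5 Crispld1 was at 6.21 (6.61 to 6.67) and Csf3r at 11.70 (11.44 to 11.46).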

How the results depend on the processing

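Over 21 alternatives, 0 of 120 named genes reversed, 92 kept their side of the threshold in all, and of 2498 values 44 were no longer past it and 6 newly were. The 5947 calls ranged from 5032 (without MPP 3) to 7217 (without GMP 1) as single libraries were left out, with 2472 to 3940 higher, 2551 to 3277 lower and 1082 to 1128 over 2-fold. A test against a difference of 0.5 called 1401 (522 higher and 879 lower), and a minimum mean of 6 left 690 of 1106 genes over 2-fold, since fewer genes are tested, and 1 of 11 B lymphoid, 3 of 8 GIMAP and 6 of 14 lymphoid priming falls. That minimum also left 9 of 16 dendritic cell, 8 of 14 stem cell surface, 17 of 26 interferon-stimulated and 8 of 14 feedback falls. It left 5 of 8 megakaryocyte and 3 of 6 BCL2 family falls. The test against 0.5 left 1 respiratory chain, 1 replication and 11 protein folding rises. It left 14 stem cell factor, 10 dendritic cell and 15 interferon-stimulated falls. Without a filter 44.0% of calls were higher in GMP. Array weights called 7496 genes, a ribosomal protein covariate 7769 and a fit to all 15 libraries 5895. Leaving out both libraries numbered 3, chosen after seeing the data, called 4722. Itga2b (adjusted p = 0.0533) and Dusp6 (0.0564) were not past the threshold in the fit to all 15 libraries.

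The T2F3 difference of steps, 274 genes, gave 436 without a filter and 140 with a minimum mean of 6. Its range was 79 (without T2F3 MPP 3) to 586 (without T2F3 MPP 1), with 107 without T2F3 GMP 3, 117 without MPP 3, 121 without MPP 4, 133 without T2F3 MPP 2, 137 without MPP 1, 180 without T2F3 GMP 2, 181 without GMP 2 and 182 without GMP 5. Alternatives were run for this count and not for its single genes.

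Wild-type MPP and GMP share 4 replicate numbers. With the number as a replicate block 5414 genes were called, 2748 higher and 2666 lower, and 204 in the T2F3 difference of steps. Deviations of same-numbered libraries correlated at 0.06, 0.45, 0.10 and 0.38 for numbers 1, 3, 4 and 5. Those of differently numbered libraries ran from -0.32 to 0.41, and MPP 4 correlated best with GMP 1 (0.41). Both libraries numbered 3, and no others, had high Ddx3y (7.74 and 7.68). The labels do not say whether a number marks an animal, so the main fit did not take the numbers as pairs. With the block 19 ribosomal protein genes rose, and Cst3 (adjusted p = 0.0603) did not pass. The depth is unknown, so no limit of detection is given.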
